A study of Mus musculus with 11 samples.

Results

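Cd79a, Cd79b, Ms4a1, Cr2, Cd3e, Cd3g, Cd4, Cd8a and Madcam1 are 9 of the 52282 mouse genes measured in 11 bulk RNA libraries of inguinal white adipose tissue, fat under the skin of the groin that surrounds a lymph node. They were chosen by name as B-cell, T-cell and lymph node vessel genes, with earlier results of these data known. Their estimated reads were summed over all annotated transcripts. The mice were C57BL6/J, aged 16 weeks, and all carried the floxed allele of Raptor, the subunit that makes the kinase mTOR into the growth-regulating complex mTORC1. KO mice also carried a Cre recombinase driven by the adiponectin promoter, which is active in adipocytes, so the lymphocytes and vessels of these mice are not the targeted cells, and WT mice were floxed littermates without the Cre. All ate a high-fat diet for 8 weeks, with or without rosiglitazone, an agonist of the nuclear receptor PPARG, at a dose of 30 mg/kg/day. The groups held 3 libraries of KO with rosiglitazone, 2 of KO on diet, 3 of WT with rosiglitazone and 3 of WT on diet. In each of the 6 WT libraries the title and the treatment characteristic disagree on the treatment, and the WT groups here follow the characteristic. Whether replicates are separate animals is not stated, so p-values speak only of the spread among these libraries, part of which may be technical.

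B cells sense antigen through a surface immunoglobulin that signals through the paired chains encoded by Cd79a and Cd79b. Ms4a1 encodes CD20 and Cr2 encodes complement receptor CD21, which mature B cells carry and, for CD21, follicular dendritic cells too. T cells signal through the CD3 complex, of which Cd3e and Cd3g encode chains, and Cd4 and Cd8a mark the helper and cytotoxic branches. Lymphocytes enter lymph nodes across high endothelial venules, and Madcam1 encodes an adhesion molecule of such vessels, best known in gut-associated lymphoid tissue, where it binds the lymphocyte integrin of the chains Itga4 and Itgb7.

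Depth ran between 13035346 and 17167452 estimated reads in KO with rosiglitazone, 18910679 and 20163464 in KO on diet, 18437526 and 40925952 in WT with rosiglitazone, and 16088059 and 27160069 in WT on diet. Levels below are CPM, read counts relative to the scaled library total, unless TPM, which also divides by transcript length, is named. TPM was not rescaled between libraries. No gene of the B-cell or T-cell marker lists was at 0 in any library. Before any comparison, 3 libraries stood apart: KO on diet replicate 1, WT with rosiglitazone replicate 2 and WT on diet replicate 1 were the lowest of all 11 for every one of the 8 lymphocyte genes. They were not the shallowest libraries. In bulk tissue, fewer cells of a type and less RNA per cell cannot be told apart, and the libraries do not show where in the depot the RNA came from.

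The sequences before the start sites of 3 of the genes are shown because Madcam1 behaved apart from the lymphocyte genes, of which Cd8a and Cd3g serve as examples. RefSeq promoters of build GRCm38.p6 were matched for 6 of the 9 genes, and the 250 bases before the start are given here, read 5′ to 3′ on the gene's strand. Madcam1 is at chr10:79664309-79664558 on the plus strand, Cd8a at chr6:71373177-71373426 on the plus strand and Cd3g at chr9:44980432-44980681 on the minus strand. Capitals mark matches to the motifs described next, apart from the E-box.
Madcam1: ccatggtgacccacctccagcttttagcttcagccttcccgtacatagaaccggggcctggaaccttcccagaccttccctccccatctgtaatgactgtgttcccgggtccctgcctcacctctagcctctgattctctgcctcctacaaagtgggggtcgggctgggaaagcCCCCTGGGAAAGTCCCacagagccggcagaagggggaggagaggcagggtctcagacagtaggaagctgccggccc
Cd8a: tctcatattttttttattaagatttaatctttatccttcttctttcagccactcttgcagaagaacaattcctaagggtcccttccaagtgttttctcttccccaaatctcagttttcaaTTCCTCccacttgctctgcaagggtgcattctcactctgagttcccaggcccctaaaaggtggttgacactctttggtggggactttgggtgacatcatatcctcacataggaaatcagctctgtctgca
Cd3g: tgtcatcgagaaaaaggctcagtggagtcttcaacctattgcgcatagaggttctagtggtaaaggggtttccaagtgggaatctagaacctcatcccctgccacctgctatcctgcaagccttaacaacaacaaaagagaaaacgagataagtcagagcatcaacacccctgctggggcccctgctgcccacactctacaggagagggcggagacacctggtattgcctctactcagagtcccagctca

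The capitals in Madcam1 hold an NF-kB-like match to GGGANTTTC on the reverse strand, 69 to 61 bases before the start, which 0.941% of 32851 promoters of the same length also hold. They also hold an EBF core match, CCCNNGGG, 76 to 69 bases before the start, sharing 1 base with it, a motif found in 11.8% of promoters. The capitals in Cd8a are a match to the PU.1 and ETS core GAGGAA on the reverse strand, held by 23.3% of promoters and also found in Cd79a and Cd3e. An E-box, CANNTG, was found in all 6 and in 66.2% of promoters. The RUNX core TGTGGT and the nuclear receptor half-site AGGTCA, each in 14% of promoters, had no match in the 6 windows, nor had the half-site repeated 1 base apart, which 0.0335% of promoters hold. Both strands were searched, and these matches describe letters only. The Madcam1 window was 61.2% G and C, the Cd8a window 42.8% and the Cd3g window 51.6%, against a median of 52.4% over all promoters.

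The receptor chains of B cells varied widely by library. Cd79a (ENSMUSG00000003379.7, chromosome 7, 24897381 to 24902197, plus strand, build GRCm38 for all genes) measured 27.2, 24.6 and 31.0 CPM in KO with rosiglitazone, 0.689 and 36.9 CPM in KO on diet, 11.3, 1.21 and 7.29 CPM in WT with rosiglitazone, and 1.34, 30.9 and 28.4 CPM in WT on diet, with replicates in numerical order here and below. The 3 KO libraries with rosiglitazone lay close together, while each of the other groups held a library near 1 CPM. Cd79b (ENSMUSG00000040592.11, chromosome 11, 106311341 to 106314762, minus strand) measured 55.5, 55.4 and 74.9 CPM in KO with rosiglitazone, 1.28 and 88.1 CPM in KO on diet, 29.0, 1.59 and 12.6 CPM in WT with rosiglitazone, and 3.43, 98.3 and 71.5 CPM in WT on diet. The highest library held 76.8 times the level of the lowest for Cd79b, the widest range of the 8 lymphocyte genes, and 53.6 times for Cd79a. In TPM, Cd79b over Cd79a ranged between 1.63 and 3.96 with a median of 2.97, so the pair kept its proportion within a narrower range than either level.

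The surface proteins of mature B cells followed the same libraries. Ms4a1 (ENSMUSG00000024673.9, chromosome 19, 11249675 to 11266241, minus strand) measured 68.8, 85.5 and 83.8 CPM in KO with rosiglitazone, 3.89 and 109.1 CPM in KO on diet, 37.0, 4.01 and 23.2 CPM in WT with rosiglitazone, and 4.29, 138.9 and 117.1 CPM in WT on diet. Cr2 (ENSMUSG00000026616.15, chromosome 1, 195136811 to 195176716, minus strand) measured 102.9, 113.8 and 115.9 CPM in KO with rosiglitazone, 9.06 and 192.0 CPM in KO on diet, 62.2, 7.47 and 31.2 CPM in WT with rosiglitazone, and 8.81, 148.7 and 131.7 CPM in WT on diet. Both genes were high in all libraries of KO with rosiglitazone, while the diet groups and WT with rosiglitazone each mixed high and low libraries. Ms4a1 overlaps the antisense gene 4930526L06Rik, which measured 1.93 to 2.86 CPM. Strand is not stated in the labels, so reads of the overlapping part cannot be told apart.

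The T-cell chains were low in the same 3 libraries. Cd3e (ENSMUSG00000032093.7, chromosome 9, 44998740 to 45009627, minus strand) measured 34.9, 37.6 and 40.1 CPM in KO with rosiglitazone, 1.82 and 71.0 CPM in KO on diet, 13.6, 0.964 and 14.5 CPM in WT with rosiglitazone, and 1.48, 39.4 and 29.3 CPM in WT on diet. It overlaps the predicted genes Gm48719, on the other strand, and Gm48720, on the same strand, which measured at most 1.88 and 2.88 CPM. Cd3g (ENSMUSG00000002033.14, chromosome 9, 44969572 to 44980431, minus strand) measured 16.5, 17.0 and 16.6 CPM in KO with rosiglitazone, 2.27 and 28.4 CPM in KO on diet, 4.05, 1.03 and 5.96 CPM in WT with rosiglitazone, and 1.86, 15.5 and 14.9 CPM in WT on diet. For both chains KO on diet replicate 2 was the highest library. In TPM, Cd3e over Cd79a had a median of 1.86 and stayed between 0.686 and 2.54 in all 11 libraries, so T-cell and B-cell receptor chains varied in similar proportion from library to library.

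The helper and cytotoxic co-receptors completed the T-cell group. Cd4 (ENSMUSG00000023274.14, chromosome 6, 124864692 to 124888221, minus strand) measured 32.5, 36.1 and 34.5 CPM in KO with rosiglitazone, 5.22 and 48.4 CPM in KO on diet, 14.7, 3.08 and 13.4 CPM in WT with rosiglitazone, and 2.39, 39.5 and 28.9 CPM in WT on diet. Cd8a (ENSMUSG00000053977.13, chromosome 6, 71373427 to 71379173, plus strand) measured 41.6, 29.6 and 36.5 CPM in KO with rosiglitazone, 2.71 and 67.9 CPM in KO on diet, 13.7, 3.48 and 17.9 CPM in WT with rosiglitazone, and 2.52, 42.5 and 35.0 CPM in WT on diet. Cd4 had the narrowest range of the 8, with 20.3 times between its highest and lowest library. In TPM, Cd4 over Cd8a had a median of 1.1, and its 3 highest values, 3.82, 2.26 and 2.33, were in KO on diet replicate 1, WT with rosiglitazone replicate 2 and WT on diet replicate 1, the same libraries in which both genes were lowest. In estimated reads, Cd4 and Cd8a held 106 and 55, 99 and 112, and 55 and 58 there, so Cd4 exceeded Cd8a only in the first. TPM depends on how reads were divided among transcripts of different length. The Cd4 transcript Cd4-202, of 946 bases, took 40.0%, 59.8% and 58.2% of Cd4 reads in these libraries. No shift between the branches is read from these ratios.

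The vessel gene did not follow. Madcam1 (ENSMUSG00000020310.9, chromosome 10, 79664559 to 79668537, plus strand) measured 2.24, 3.01 and 2.30 CPM in KO with rosiglitazone, 0.295 and 0.679 CPM in KO on diet, 6.65, 7.56 and 4.31 CPM in WT with rosiglitazone, and 0.217, 0.344 and 0.939 CPM in WT on diet. These rest on 36, 40 and 37 reads in KO with rosiglitazone, 6 and 17 in KO on diet, 187, 243 and 68 in WT with rosiglitazone, and 5, 7 and 18 in WT on diet. In CPM, all 3 WT libraries with rosiglitazone stood above all 3 KO libraries with rosiglitazone, and these above all libraries on diet alone, where KO and WT overlapped. In TPM the second step did not hold: KO with rosiglitazone replicate 1, at 0.936 TPM, was below WT on diet replicate 3, at 1.15 TPM. That KO library had low TPM for its CPM. Cd79a, with 1 transcript, was at 8.85 TPM and 27.2 CPM there, against 23.4 TPM and 28.4 CPM in WT on diet replicate 3. WT with rosiglitazone replicate 2, the lowest library for Cr2, Cd3e and Cd3g, was the highest for Madcam1. At the lowest level, WT on diet replicate 1, the 95% counting interval was 0.0704 to 0.506 CPM (exact binomial, counting error only).

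**Figure D1:**
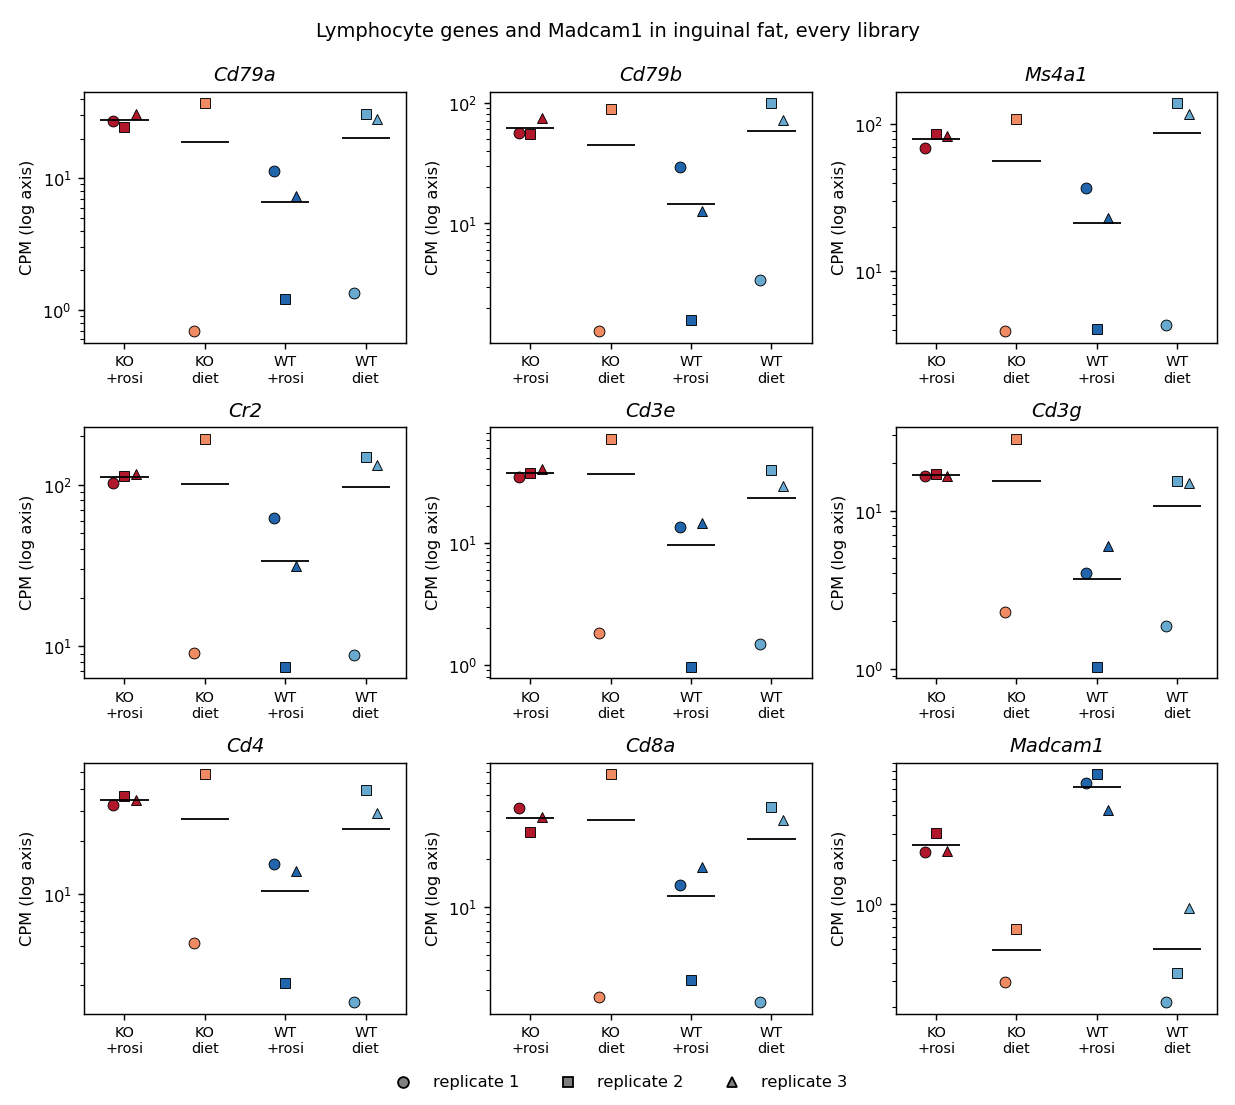
CPM (log axis) of each of the 9 genes in every library, by group, with replicate numbers as symbols and the group mean as a line. The 8 lymphocyte genes share 3 low libraries, KO on diet replicate 1, WT with rosiglitazone replicate 2 and WT on diet replicate 1, while Madcam1 separates WT with rosiglitazone, at 4.31 to 7.56 CPM, from the diet groups, at most 0.939 CPM.

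Among the 8 lymphocyte genes, all 28 pairs had a Pearson r of log2(CPM + 0.5) between 0.939 and 0.994 over the 11 libraries, and a Spearman rho between 0.745 and 0.973. Madcam1 had an r of -0.177 to 0.0282 and a rho of -0.218 to -0.0545 with the 8. Over the 8 libraries left without the 3 low ones, which their low lymphocyte values chose, Madcam1 had an r of -0.854 to -0.751 and a rho of -0.905 to -0.452 with the 8 genes, and the 28 pairs an r of 0.809 to 0.979 and a rho of 0.405 to 0.929. All these values describe libraries that share depth and composition, and carry no test. No relation is read from those over 8 libraries, since values of the same genes chose the libraries. The genes most like each one in pattern, over the same 11 libraries, included known lymphocyte genes. For Cd79a they were Spib, a B-cell transcription factor (r 0.998, rho 0.964), Zfp831 and Fcmr. Cd79b was closest to Fcrla, Spib and Siglecg, Ms4a1 to Pcdh15, Fcer2a and Bank1, and Cr2 to Dtx1, Fcer2a and Bcl11a, with r of at least 0.995. Cd3e was closest to Runx3, a T-cell transcription factor (r 0.996, rho 0.909), Slamf1 and Rasal3. Cd3g was closest to Dennd2d, Cracr2a and Unc13d, Cd4 to Il21r, Sh2d2a and Podnl1, and Cd8a to Nsg2, Lef1 and Grem1. Madcam1 was closest to Ankrd52 (r 0.977, rho 0.982), Slc52a2 and Pgls, none of which was in the lists of lymphocyte or vessel genes. Ankrd52 moved little, between 94.3 and 137 CPM.

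Other genes of high endothelial venules and lymph node stroma, named after their values were seen, were mixed: Glycam1, Chst4 and Ccl21a were low in the 3 low libraries, and Ccl19 and Cxcl13 only in part. Glycam1, a mucin-like ligand that such vessels present to L-selectin, measured 6.42, 9.26 and 7.47 CPM in KO with rosiglitazone, 0.394 and 9.51 CPM in KO on diet, 2.70, 1.09 and 3.04 CPM in WT with rosiglitazone, and 0.564, 7.27 and 7.41 CPM in WT on diet. Chst4, a sulfotransferase that modifies those ligands, had 0 reads in each of the 3 low libraries and 4 to 47 reads in the other 8. Ccl21a, a chemokine that draws T cells into the node, was between 13.8 and 118.0 CPM in those 8 libraries, against 5.96, 4.11 and 2.08 CPM in KO on diet replicate 1, WT with rosiglitazone replicate 2 and WT on diet replicate 1. Ccl19, another chemokine for T cells, was 5.76, 2.67 and 1.43 CPM in the same 3 libraries, the first of these above the 5.39 CPM of WT with rosiglitazone replicate 3. Cxcl13, a chemokine for B cells, was 1.43 and 2.43 CPM in the low WT libraries with rosiglitazone and on diet, but at 93.9 CPM in KO on diet replicate 1, against 4.38 to 28.7 CPM in the other 8. The summed level of the 14 venule genes was highest in KO on diet replicate 1, at 410 CPM, and that of the 14 stromal genes in WT on diet replicate 1, at 1126 CPM. In TPM, Madcam1 over Glycam1 was 7.85 in WT with rosiglitazone replicate 2 and 0.0254 in WT on diet replicate 2, the highest and the lowest of the 11, with a median of 0.176.

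**Figure D2:**
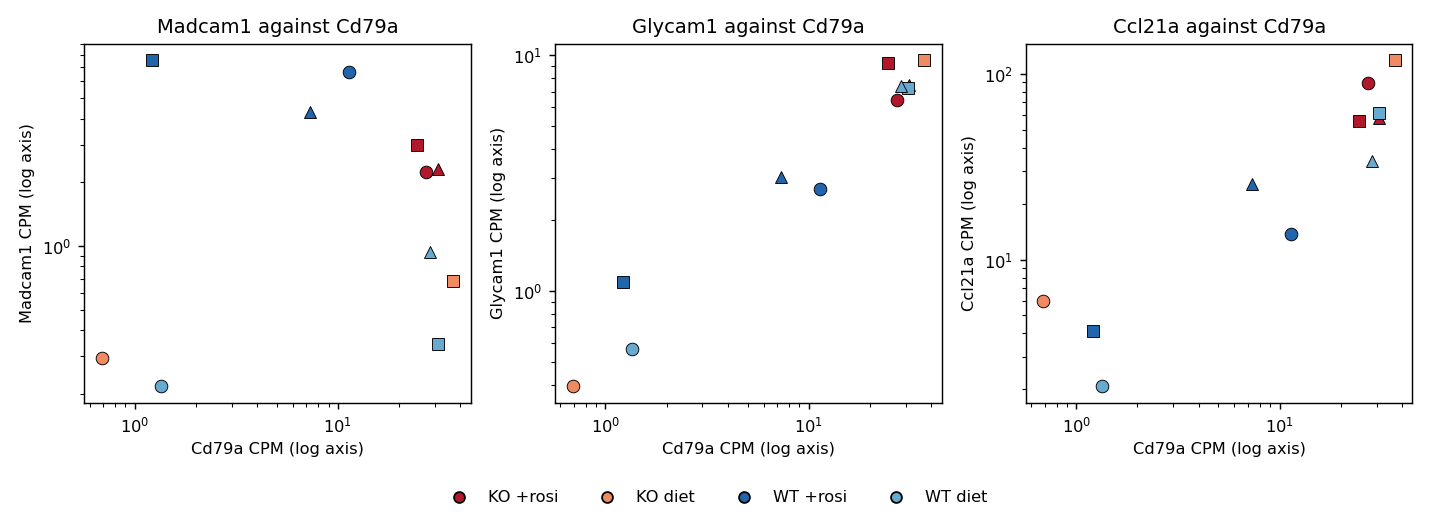
Madcam1, Glycam1 and Ccl21a against Cd79a in CPM (both axes log), with 1 point per library, coloured by group and with replicate numbers as in the plot of all 9 genes. Glycam1 and Ccl21a were low where Cd79a was low, whereas Madcam1 was highest, at 7.56 CPM, in a library with 1.21 CPM of Cd79a.

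KO against WT with rosiglitazone was the comparison in which the lymphocyte genes separated in CPM. In that unit all 8 were higher in every KO library than in every WT library, by log2 fold changes of 1.63 (Cd8a) to 2.20 (Cd3g). None was called in edgeR's quasi-likelihood test at an adjusted p of 0.05, nor had any of the 8 an unadjusted p under 0.05. Of 26960 genes tested, 15.0% were called here, and 23.5% had KO libraries entirely above WT libraries in CPM. In TPM the groups overlapped for Cd79a, Cd79b, Ms4a1, Cr2, Cd3e and Cd4, and only Cd3g and Cd8a stayed separate. For each overlapping gene KO replicate 1 was below WT replicate 1, for example at 22.3 against 32.4 TPM for Cd79b and 13.7 against 24.5 TPM for Cr2. KO replicate 1 had low TPM for its CPM outside these genes too. Ankrd52 was at 10.6 TPM and 110.5 CPM there, against 34.6 TPM and 124.9 CPM in WT replicate 1. How far this difference in scale made the overlap was not tested. Cd3g averaged 16.7 ± 0.289 CPM in KO and 3.68 ± 2.49 CPM in WT (SD, n = 3 each), a log2 fold change of 2.20 ± 1.00 (SE) with an adjusted p of 0.168, the lowest of the 8. Cd79b averaged 61.9 ± 11.2 CPM in KO and 14.4 ± 13.8 CPM in WT, a log2 fold change of 2.11 ± 1.45 with an adjusted p of 0.348. For Cd79a, Ms4a1, Cr2, Cd3e, Cd4 and Cd8a the adjusted p was 0.274 to 0.359. WT replicate 2 was the lowest of its group for all 8 genes. The separation depends on the WT labels: with WT grouped by titles the 8 log2 fold changes were -0.13 to 0.68.

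Madcam1 went the other way in the same comparison. It averaged 2.52 ± 0.427 CPM in KO and 6.17 ± 1.67 CPM in WT (SD, n = 3 each), with every KO library below every WT library, as 24.7% of tested genes were. Its log2 fold change was -1.30 ± 0.45 (SE), with an adjusted p of 0.0809, which misses the threshold. The call was made by DESeq2 (adjusted p = 0.0285) and in TPM by limma (0.0124 with a pseudocount of 1 and 0.0376 with 0.1). The limma fits took TPM without scaling between libraries. In that unit Ankrd52 averaged 16.8 in KO and 27.2 in WT, against 112.4 and 127.3 CPM. The part of this in the limma calls was not tested. The call was also made by edgeR with only these 2 groups in the fit (0.00583), and without WT on diet replicate 1 (0.0396) or replicate 3 (0.0331), both outside this comparison. By edgeR it was missed with RLE scaling (0.0788), no filter on low counts (0.101), at least 1 CPM in 3 libraries (0.0751) and the replicate block (0.0964). Leaving out a library of the groups compared gave 0.0964 (WT replicate 3) to 0.24 (WT replicate 2), also above the threshold. Leaving out WT on diet replicate 2 gave 0.0925. Of 12 blood endothelium markers, 5 fell in the same comparison, where 15.0% of all genes were called, 1476 higher and 2561 lower. None was at 0, with a summed level of 636 to 687 CPM in KO and 972 to 1314 CPM in WT. The 3 of smallest p were Robo4, a vessel guidance receptor (-1.31 ± 0.27, adjusted p = 0.0133), Cldn5, a tight junction protein (-1.53 ± 0.34, adjusted p = 0.0174), and Kdr, a receptor for vascular growth factor (-1.15 ± 0.29, adjusted p = 0.0257). With rosiglitazone in WT, 0 of the 12 were called, where 2.14% of all genes were. Their highest summed level, 1441 CPM, was in WT on diet replicate 1, the lowest library for Madcam1. The part of endothelial content in the level of Madcam1 was not tested. Cd3g was also called by DESeq2 (0.0495) and with only these 2 groups (0.0387).

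Rosiglitazone in WT was the comparison in which Madcam1 was called. It averaged 6.17 ± 1.67 CPM in WT with rosiglitazone and 0.50 ± 0.385 CPM in WT on diet (SD, n = 3 each), with no overlap, a log2 fold change of 3.64 ± 0.51 (SE) or 12.4 times, and an adjusted p of 0.0154 by edgeR. Of all genes tested, 2.14% were called, and 13.4% had WT libraries with rosiglitazone entirely above those on diet. The adjusted p was 0.0576 without WT with rosiglitazone replicate 1, 0.0793 without replicate 2 of that group and 0.0788 without WT on diet replicate 2. Without WT on diet replicate 3 the log2 fold change was 4.45. The treatment labels of WT conflict, and with the titles in their place the same change carries the opposite sign, -3.64. Sptlc3, named after its values were seen, had 83, 77 and 45 reads in KO with rosiglitazone and 0 in both libraries of KO on diet, whose labels do not conflict. It had 521, 1482 and 556 reads in the WT libraries taken as rosiglitazone, and 7, 2 and 9 in those taken as diet. The 8 lymphocyte genes had log2 fold changes of -2.02 (Ms4a1) to -1.18 (Cd4), with overlapping groups and adjusted p of 0.458 to 0.668. Ms4a1 averaged 21.4 ± 16.6 CPM in WT with rosiglitazone and 86.8 ± 72.2 CPM in WT on diet, so its spread within each group was close to the mean.

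Rosiglitazone in KO left the lymphocyte genes within their spread. Their log2 fold changes were 0.02 (Cd8a) to 0.55 (Cd79a), with adjusted p of at least 0.976, and KO on diet held both a low library and a high one. They rested on which of these was kept, and with each library left out in turn ranged between -0.92 and 5.59: Cd79b was at 5.59 without KO on diet replicate 2 and at -0.51 without replicate 1. Madcam1 averaged 2.52 ± 0.427 CPM in KO with rosiglitazone (SD, n = 3) and 0.487 ± 0.271 CPM in KO on diet (SD, n = 2), without overlap, where 10.5% of genes were entirely above. The log2 fold change was 2.33 ± 0.58 (SE), with an unadjusted p of 0.00242 and an adjusted p of 0.275 in edgeR, in a comparison where 0.0148% of genes were called. DESeq2 called Madcam1 here, with an adjusted p of 0.0105. Its change with rosiglitazone in KO was set against that in WT by the interaction, which gave -1.30 ± 0.74 with an adjusted p of 0.575. None of the 9 genes was called in the interaction by edgeR or DESeq2, 0 had an unadjusted p under 0.05, and 0.104% of all genes were called, so a difference between the genotypes was not shown.

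On diet alone, KO and WT overlapped for all 9 genes. None was called by edgeR, in a comparison where 0.137% of genes were, 0 had an unadjusted p under 0.05 and DESeq2 called 0. Madcam1 averaged 0.487 ± 0.271 CPM in KO (SD, n = 2) and 0.50 ± 0.385 CPM in WT (SD, n = 3), a log2 fold change of 0.01 ± 0.56 (SE). For the lymphocyte genes the log2 fold changes were -0.62 (Ms4a1) to 0.64 (Cd3e), with standard errors of 1.05 to 1.56, and between -5.49 and 1.60 with each library left out in turn. Differences of that size were within the spread of the libraries, and 1 library of each group was low.

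**Figure D3:**
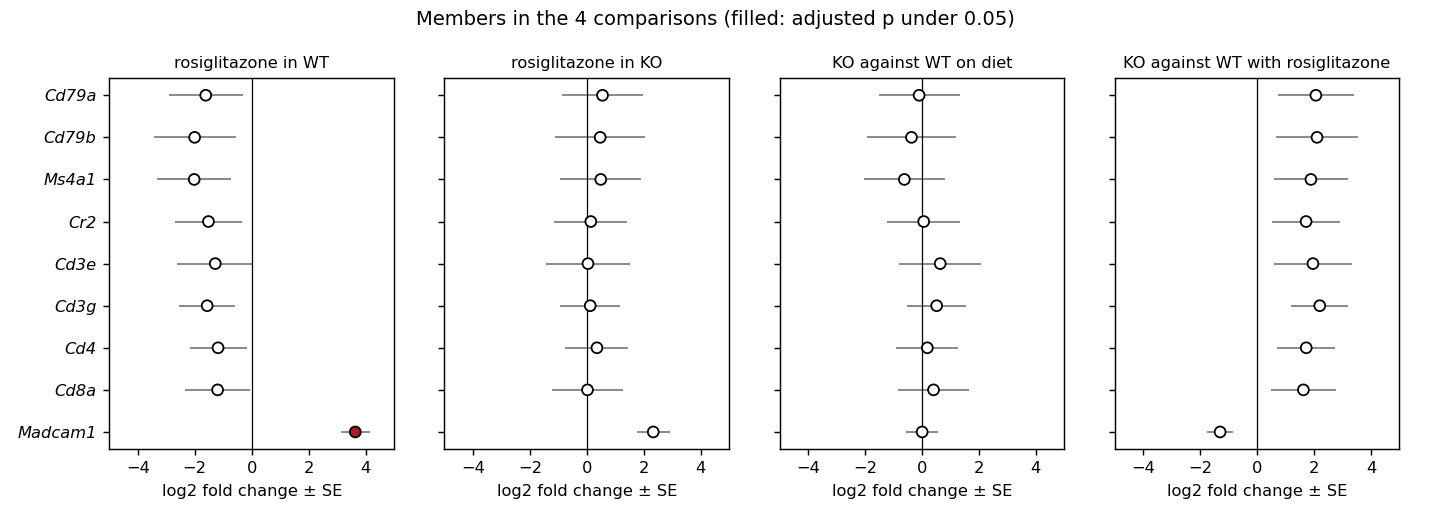
Log2 fold change with its standard error for the 9 genes in the 4 comparisons between groups; filled points passed an adjusted p of 0.05. The filled point is Madcam1 with rosiglitazone in WT, at 3.64, and the lymphocyte genes with rosiglitazone lie at 1.63 to 2.20 for KO against WT, with wide errors.

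Wider lists gave the setting of these genes, each containing some of them. Of 29 T-cell genes, which include Cd3e, Cd3g, Cd4 and Cd8a, 0 were called for KO against WT with rosiglitazone, all 29 had positive log2 fold changes, and 2 had an unadjusted p under 0.05, where 15.0% of all genes were called. The median of that list was 2.04, against 0.05 over all tested genes. Of 23 B-cell genes, which include Cd79a, Cd79b, Ms4a1 and Cr2, 1 rose and 1 fell, with a median of 1.90. The gene that rose was Cd74, the invariant chain of antigen presentation, which macrophages also express (log2 fold change 1.40 ± 0.37, adjusted p = 0.0334). The gene that fell was Ebf1, a transcription factor of B cells and of adipocytes (-0.87 ± 0.19, adjusted p = 0.0164). With rosiglitazone in WT, 0 T-cell and 0 B-cell genes were called by edgeR, and 0 and 2 of them had an unadjusted p under 0.05, where 2.14% of all genes were called, with medians of -1.35 and -1.63 against -0.05 over all genes.

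Signalling genes that act with the receptors are in part shared with macrophages and other leukocytes. The counts that follow stand beside the 15.0% of all genes called in this comparison in either direction, 1476 higher and 2561 lower. With both directions counted, the T-cell signalling and homing lists are near that share. All their calls were higher, however, and the share of all genes called higher is smaller than 15.0%. Of 20 B-cell receptor signalling genes, 6 rose in KO against WT with rosiglitazone, with a list median of 2.02, and Cd79a, Cd79b and Cr2 were not among them. Those of smallest p were Pik3ap1, an adaptor to PI 3-kinase (2.34 ± 0.36, adjusted p = 0.00377), Syk, the kinase recruited by the Cd79 chains (2.15 ± 0.37, adjusted p = 0.00591), and Lyn, a Src-family kinase (0.83 ± 0.16, adjusted p = 0.0102). Of 20 T-cell receptor signalling genes, 2 rose, the kinase Fyn (1.06 ± 0.26, adjusted p = 0.0225) and the adaptor Lcp2 (1.76 ± 0.44, adjusted p = 0.0264). Of 19 homing genes, 3 rose: the integrin chains Itgb2 (2.71 ± 0.25, adjusted p = 0.000547) and Itga4 (1.47 ± 0.40, adjusted p = 0.0353), and Selplg, a selectin ligand (2.04 ± 0.56, adjusted p = 0.0391). Itgb7, the partner of Itga4 in the receptor for Madcam1, looked at after the values were seen, was not called (1.89 ± 0.85, adjusted p = 0.166). With rosiglitazone in WT, the called genes of these lists besides Madcam1 were Lyn (-0.85 ± 0.16, adjusted p = 0.0339) and Itgb2 (-1.27 ± 0.24, adjusted p = 0.0330), which both fell.

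Of 14 high endothelial venule genes, 3 rose and 1 fell in KO against WT with rosiglitazone, where 15.0% of all genes were called. Those named by smallest p were Gcnt1, a glycosyltransferase that rose (2.21 ± 0.40, adjusted p = 0.00708), St3gal6, a sialyltransferase that fell (-1.69 ± 0.32, adjusted p = 0.00916), and Sele, the endothelial selectin, which rose (2.63 ± 0.61, adjusted p = 0.0203). Madcam1 was the only gene of that list called with rosiglitazone in WT. Glycam1, of the same list, was not called in any of the 5 contrasts, with log2 fold changes of -1.17 ± 1.03 for rosiglitazone in WT and 1.77 ± 1.04 for KO against WT with rosiglitazone. Of 14 genes of lymph node stroma and follicular dendritic cells, which include Cr2, 2 rose and 1 fell, and of 9 germinal centre genes 2 rose and 2 fell.

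Macrophage and mature adipocyte markers also differed between KO and WT with rosiglitazone. Of 16 macrophage genes, 13 rose in KO against WT with rosiglitazone, and none was at 0 in any library, where 15.0% of all genes were called. Their summed level was 3027 to 3761 CPM in KO and 791 to 969 CPM in WT. Of 16 mature adipocyte genes, 14 fell, with a summed level of 4598 to 5064 CPM in KO, against 24483 to 28352 CPM in WT. The T-cell sum was 971 to 1118 CPM in KO and 47 to 397 CPM in WT. In the 3 low libraries the adipocyte sum was 7243 CPM in KO on diet replicate 1, 28352 CPM in WT with rosiglitazone replicate 2 and 27537 CPM in WT on diet replicate 1, which was the highest of its group in each case. KO on diet replicate 2, with the highest Cd79a, Cr2, Cd3e, Cd3g, Cd4 and Cd8a, had the lowest adipocyte sum, 2257 CPM. Skeletal muscle markers varied by library instead, and 0 of 15 were called in KO against WT with rosiglitazone. Their sum was 32 to 16598 CPM in KO with rosiglitazone and 16 to 128 CPM in KO on diet. In WT it was 137 to 7438 CPM with rosiglitazone and 315 to 6157 CPM on diet. The part of adipocyte, macrophage and muscle content in the levels of the 9 genes was not tested.

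**Figure D4:**
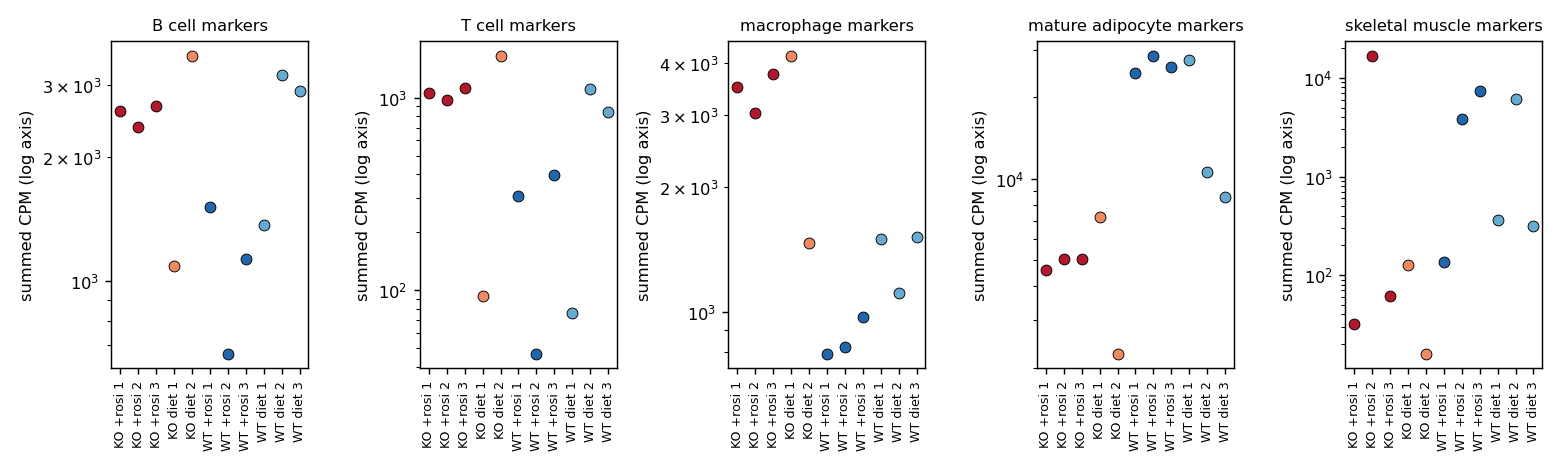
Summed CPM (log axis) of B-cell, T-cell, macrophage, mature adipocyte and skeletal muscle markers in each of the 11 libraries, coloured by group. The T-cell sum is lowest in KO on diet replicate 1, WT with rosiglitazone replicate 2 and WT on diet replicate 1, at 94, 47 and 76 CPM, while the macrophage sum in the first of these is the highest of all, at 4154 CPM. The B-cell sum does not single out these 3 libraries, at 1092, 668 and 1367 CPM, with WT with rosiglitazone replicate 3 at 1133 CPM.

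Not every B-cell marker was low in the 3 libraries. Ighm, the immunoglobulin mu heavy chain, named after its values were seen, was 198.8, 188.4 and 426.7 CPM in KO on diet replicate 1, WT with rosiglitazone replicate 2 and WT on diet replicate 1, and 190.4 to 407.0 CPM in the other 8, so it did not mark them. Ebf1 was at 196.0, 233.8 and 255.5 CPM in the same 3 libraries, against 122.2 to 235.3 CPM in the other 8. Cd74 was at 615.7, 197.0 and 607.1 CPM there, against 354.3 to 1172 CPM.

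Transcript estimates differed in the low libraries. The share of a gene's reads that Salmon gave to transcripts annotated as not protein-coding was 91.3%, 94.0% and 83.1% for Cd3g in KO on diet replicate 1, WT with rosiglitazone replicate 2 and WT on diet replicate 1, against 41.7% to 64.1% in the other 8 libraries. For Ms4a1 it was 78.4%, 92.9% and 72.9% in the same 3 libraries, against 42.9% to 59.9%. The retained-intron transcript Cd4-202 held 18.2 to 72.1 reads in every library and made up 40.0%, 59.8% and 58.2% of Cd4 reads in the 3 low ones. Cd8a went the other way, with 0%, 0.971% and 3.70% in those 3 libraries and 25.3% to 37.8% in the other 8. Cd3e and Cr2 were not separated by this share. It was 46.7%, 27.1% and 65.9% for Cd3e in the 3 low libraries and 31.3% to 49.3% in the other 8, and 3.90%, 15.8% and 8.63% for Cr2, against 6.05% to 12.3%. Cd79a, Cd79b and Madcam1 have only coding transcripts in the annotation. For Madcam1, 55.2% of all reads went to Madcam1-201 and 44.8% to Madcam1-202, and both were present in all 3 libraries of WT with rosiglitazone. The division of reads among transcripts of a gene is an estimate and is uncertain at these counts, which were 33 to 46 reads for Cd3g in the low libraries.

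**Figure D5:**
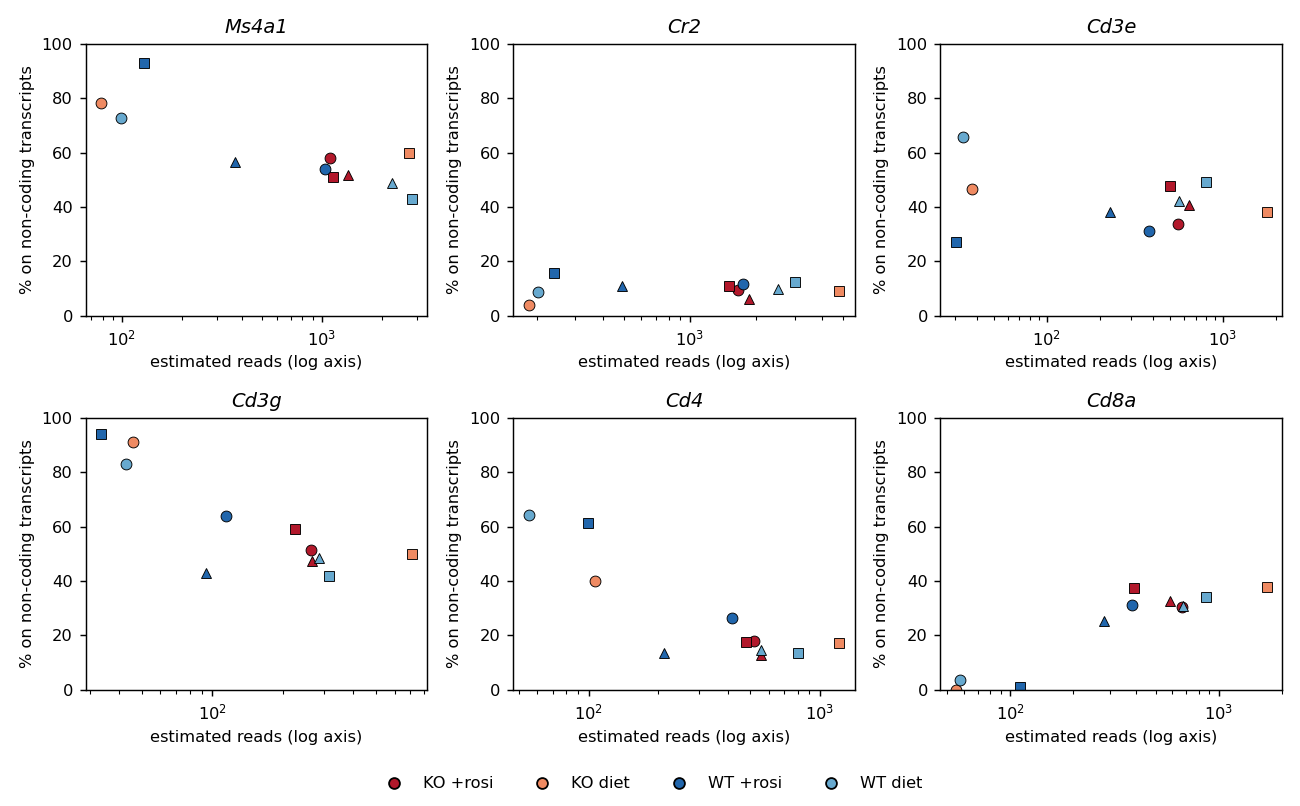
Percent of each gene's reads on transcripts annotated as not protein-coding, against the gene's estimated reads (log axis), with 1 point per library. The 3 libraries with the fewest reads lie highest for Ms4a1, Cd3g and Cd4, at 72.9% to 92.9% for Ms4a1, and lowest for Cd8a, at most 3.70%.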

How the data were processed

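Trizol RNA of whole inguinal fat went into Nextera XT libraries, per the labels' protocols. The authors quantified transcripts with Salmon and also name edgeR, with builds mm10 and GRCm38, per the submitters' processing notes; versions, annotation release and strand: not given in the sources used here. Per the file headers, the deposited tables hold an estimated count, a TPM value and an effective length per transcript. TPM was used as deposited. Of 132288 transcripts, 131892 (99.7%) matched GENCODE M21; the 396 others, 0.0985% to 0.144% of reads, were left out. Estimated counts were summed over transcripts for 52282 genes and rounded.

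The main test was edgeR 4.0.16 (R 4.3.3), quasi-likelihood with robust dispersion, TMM scaling and the expression filter by group, in 1 model over 11 libraries. It kept 26960 genes, all 9 of these genes among them. The Benjamini-Hochberg adjustment ran over all 26960, with a threshold of 0.05, and standard errors are the log2 fold change over the root of its F statistic. The pipeline was tested on simulated data. Replicates of a group differed by a chi-square of 26.5 to 139 per degree of freedom, so each library counted as 1 sample. The 9 genes and the lists were chosen with earlier results of these data known.

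All 9 genes are named in every contrast. From the other lists, at most 3 called genes per list and contrast could be named, by smallest p, and these are given for the B-cell, T-cell, signalling, homing, venule and blood endothelium lists. The 3 genes of highest r were named as most like each gene, among tested genes whose average log2 CPM was 1 or more. Genes named after their values were seen are marked in the text. Alternatives were RLE scaling, DESeq2 1.42.0, limma 3.58.1 on log2(TPM + 1) and log2(TPM + 0.1), no filter on low counts, at least 1 CPM in 3 libraries, the 2 groups alone, a replicate block, WT grouped by titles and each library left out. Madcam1 without 3 libraries was added after seeing the data. Drawings used matplotlib 3.10.9.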

Additional observations from a re-analysis of the deposited data

How the results depend on the processing

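Madcam1 with rosiglitazone in WT kept its direction, with values of 2.08 to 4.45, in every alternative but the grouping by titles. The number of these 9 genes called there was 1, was 0 with limma on log2(TPM + 0.1), and was 0 to 1 with each library left out. With rosiglitazone in KO it was 0, and 1 by DESeq2. In KO against WT with rosiglitazone it was 0, but 2 by DESeq2, 2 with the 2 groups alone, 1 by limma at either pseudocount, 1 by titles, and 0 to 1 with each library left out. It was 0 in KO against WT on diet and in the interaction, and 1 in each by titles.

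Grouping WT by titles reversed rosiglitazone in WT for Cd79a (1.61), Cd79b (2.00), Ms4a1 (2.02), Cr2 (1.52), Cd3e (1.28), Cd3g (1.56), Cd4 (1.18), Cd8a (1.20) and Madcam1 (-3.64). It also reversed KO against WT with rosiglitazone for Ms4a1 (-0.13) and Madcam1 (2.34), where the 8 lymphocyte genes were at -0.13 to 0.68, and gave Madcam1 -3.63 in KO against WT on diet and 5.97 in the interaction. In KO against WT on diet the 8 were then at 1.37 to 2.08, which reversed Cd79a (1.52), Cd79b (1.64) and Ms4a1 (1.40). In the interaction it reversed Cd79a (-1.06), Cd79b (-1.53), Ms4a1 (-1.53), Cr2 (-1.38), Cd3e (-1.24), Cd3g (-1.44), Cd4 (-0.83) and Cd8a (-1.17). Madcam1 in KO against WT on diet, near 0, was also negative with RLE scaling (-0.0079), DESeq2 (-0.0046), limma (-0.14 with a pseudocount of 1 and -0.27 with 0.1) and between -0.72 and 0.82 with each library left out. With each library left out, the 8 were at -3.05 to -0.59 with rosiglitazone in WT and 1.19 to 3.15 in KO against WT with rosiglitazone. With rosiglitazone in KO the ranges were -0.42 to 5.31 (Cd79a), -0.51 to 5.59 (Cd79b), -0.46 to 4.35 (Ms4a1), -0.79 to 3.61 (Cr2), -0.92 to 4.36 (Cd3e), -0.76 to 2.88 (Cd3g), -0.49 to 2.72 (Cd4) and -0.92 to 3.72 (Cd8a), and in KO against WT on diet -4.86 to 0.87 (Cd79a), -5.49 to 0.61 (Cd79b), -4.48 to 0.33 (Ms4a1), -3.41 to 0.99 (Cr2), -3.68 to 1.60 (Cd3e), -2.24 to 1.40 (Cd3g), -2.17 to 1.04 (Cd4) and -3.30 to 1.35 (Cd8a). By limma with pseudocounts of 1 and 0.1, Cd4 with rosiglitazone in KO was at -0.16 and -0.13. In KO against WT on diet, limma at the same pseudocounts gave -0.46 and -0.53 (Cr2), -0.34 and -0.49 (Cd3e), -0.00034 and -0.060 (Cd3g), and -0.051 and -0.084 (Cd8a), and the replicate block gave Cr2 -0.050. The causes were not tested.

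The replicate number was not treated as a pairing of samples. Of 15 pairs of libraries with the same number, 6 had deviations from their group means that correlated over 0.1, with r of -0.419 to 0.608. Pairs with different numbers had r of -0.608 to 0.419. Deviations within groups of 2 or 3 libraries are tied to each other, so these values cannot exclude a pairing. With the replicate block the count was 1 with rosiglitazone in WT (Madcam1, 3.70, adjusted p = 0.0311) and 0 in the other contrasts. Without the 3 libraries lowest in Cd79a, an alternative added after seeing the data, Madcam1 was at 3.10 with rosiglitazone in WT (adjusted p = 0.00153), at -1.13 in KO against WT with rosiglitazone (0.0494) and at 1.88 with rosiglitazone in KO. Fold changes of the 8 lymphocyte genes are not reported without these libraries, since their low values chose them. The 2 groups alone could not be used for the interaction. Madcam1's counts of 5 to 18 reads on diet limit its fold changes.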
